A study of Homo sapiens with 48 samples.

Results

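CAL27 cells grown as tumors in mice were compared with the same line grown in culture, gene by gene, in a pooled CRISPR knockout screen. CAL27 is a human tongue squamous carcinoma line, used here with stable expression of the Cas9 nuclease, and every group below carries that nuclease and a guide RNA library against 334 genes with 136 non-targeting guides. The comparison took the 10 CAL27 tumors and the 2 CAL27 cultures, 12 of the 48 samples of the series, and all 327 genes that the tables of both settings hold. Tumors grew for about 2 months in the rear flanks of SHO mice, an immunodeficient strain, after injection of cells in Matrigel, whereas cultures were kept for 3 weeks. Each setting was measured against 2 initial samples of its own, taken after infection at a multiplicity of 0.3 and selection with puromycin. The closest other comparison in the series is that of A431, an epidermoid carcinoma line carrying Cas9 and the same library, with 8 tumors from SHO mice and 2 cultures.

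In such a screen each cell carries 1 guide, which directs Cas9 to cut 1 gene, and guides against genes that the cells need are lost as the population divides. Guides against genes whose loss speeds growth are gained. Genes of DNA replication, mitosis and translation are needed in almost any dividing cell. Integrins and their partners hold epithelial cells to the matrix and pass on signals from that contact. The differentiation genes of squamous epithelium are mostly expressed in keratinocytes that have left division.

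The values are the authors' log fold changes per gene against the initial cells, with the non-targeting guides at 0. They are called log units since no source used here gives the base of the logarithm. Negative values are read as loss of the knockout. Each value column stands for 1 tumor or 1 culture and was set to a median of 0 over the 327 genes, so that a value says how a knockout fared beside the median gene. Before this step the median gene lay between -1.50 and -0.56 in the tumors and at -0.49 and -0.47 in the cultures. Tumor and culture differ in growth time, in initial samples and in the table that holds them, each table being normalized on its own, and the parts of these in a difference cannot be told apart. No file holds read counts, so the depth behind a value is unknown.

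Tumors varied far more than cultures. The SD over replicates had a median of 1.09 log units over genes in tumors and 0.0927 in cultures, and it was larger in tumors for 327 of 327 genes, with a median ratio of 12.4. Values also covered a wider range of genes in tumors: the SD over genes within a column was 1.09 to 2.23 in the 10 tumors and 0.572 and 0.592 in the 2 cultures. Across the 327 genes, single tumors correlated with each other at 0.43 to 0.64, single tumors with single cultures at 0.40 to 0.59, and the cultures with each other at 0.92. Columns of a setting share their initial cells, and genes are not independent replicates, so these values describe the columns only.

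With the spread of each setting estimated on its own (limma-moderated variances, Benjamini-Hochberg adjustment over 327 genes, threshold 0.05), 49 genes (15.0% of those tested) were lower in tumors than in culture and 58 (17.7%) were higher. The text calls a gene lower or higher by this fit. At least 8 of 10 tumors lay on that side of the culture mean for 45 of the 49 lower and 56 of the 58 higher genes. With 1 spread pooled over both settings, limma called 0 genes (0.00%) and the smallest adjusted p was 0.115, although 30 genes had an unadjusted p under 0.05. The exact two-sided permutation test over the 12 columns called 0 after adjustment as well, 29 genes having an unadjusted p under 0.05. It has 66 splits and allows no p below 0.0152, which 12 genes reached. Every call below therefore rests on separate spreads, that of culture coming from 2 columns and from sharing across genes, and on initial cells whose own error is in no test.

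Where single columns are set side by side, all 10 tumors lay below both cultures for 8 genes (2.45% of 327) and above both for 20 (6.12%). The 8 were FERMT1, ITGB1, HSPA5, DUT, MCM5, TYMP, TUBA1B and ANXA2. The 20 were ADM, BCAM, CALM3, CDKN2B, CEBPD, CKS2, DEGS1, DST, E2F1, EZH2, FHL2, ITGB4, KRTDAP, LGALS7B, NOTCH3, SBSN, SERPINB1, SMARCA4, TPM2 and TYMS. All of these 8 and 20 genes were also called.

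**Figure D1:**
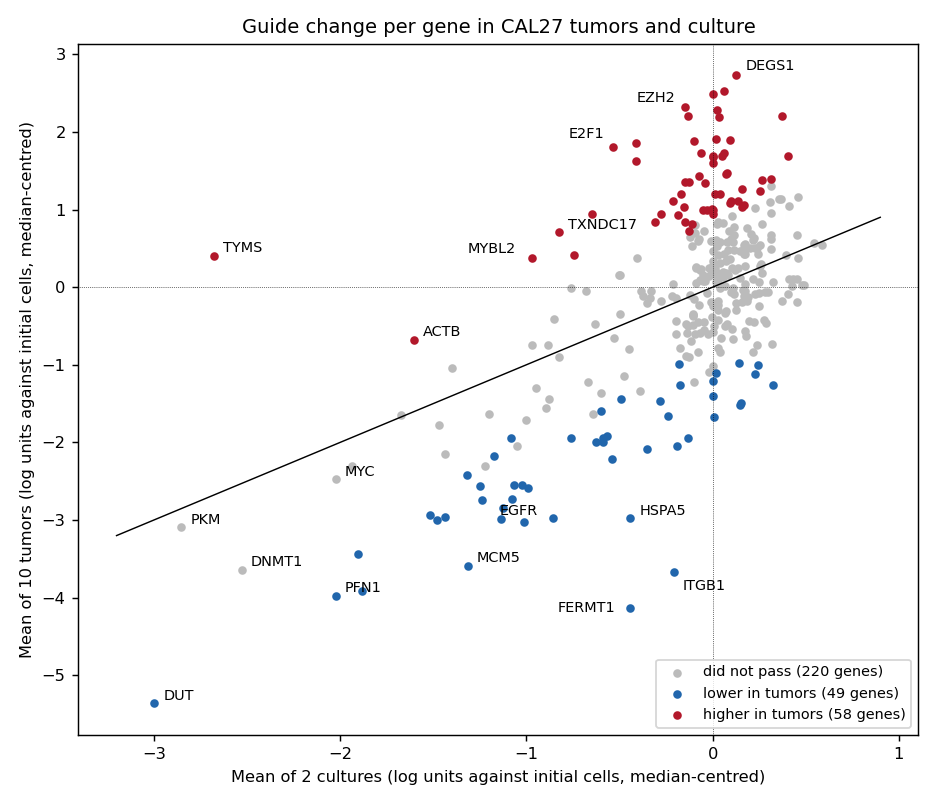
Mean of the 10 CAL27 tumors (vertical axis) against the mean of the 2 CAL27 cultures (horizontal axis) for 327 genes, in log units against initial cells with each column centred on its median. The line marks equal values, and colours mark the 49 lower, the 58 higher and the 220 other genes. FERMT1 and ITGB1 lie lowest among genes close to 0 in culture, and TYMS lies at 0.40 in tumors and at -2.67 in culture.

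The knockouts that separated the settings most, in the direction of loss in tumors, were those of a pair of genes of integrin adhesion. FERMT1 encodes kindlin-1, which binds the tail of integrin beta chains and activates them. Its values in tumors ranged from a lowest of -6.02 through a median of -4.37 to a highest of -2.45 log units, and in the cultures they were -0.17 and -0.72. Every tumor was thus well below both cultures, and the difference was -3.69 (SE 0.40, own spread, limma adjusted p = 1.28e-06, adjusted p = 0.12 with the pooled spread). ITGB1 encodes the integrin beta-1 chain, shared by most collagen, fibronectin and laminin receptors of epithelia. In tumors it had a lowest value of -7.24, a median of -3.57 and a highest of -1.75, against -0.10 and -0.32 in the cultures. The difference was -3.46 (SE 0.47, adjusted p = 2.00e-05, 0.20 with the pooled spread), again with no overlap.

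Neither knockout passed a test against 0 in culture (adjusted p = 0.16 for FERMT1 and 0.19 for ITGB1). Of 6 measured integrin subunits, ITGB1 was lower and ITGB4 was higher in tumors, and ITGA3, ITGA6, ITGAV and ITGB6 did not pass. These counts lie near the shares over all genes, 15.0% lower and 17.7% higher. The beta-4 chain pairs with alpha-6 in hemidesmosomes, the anchors of epithelium to the basement membrane. ITGB4 had values of 0.01 to 2.97 in tumors (median 1.62), against 0.00 in each culture, with a difference of 1.59 (SE 0.31). The alpha-3, alpha-6 and alpha-V chains had differences of -0.40, -0.24 and -0.82 (SE 0.46, 0.34 and 0.37). Tumor values of these 3 chains lay on both sides of the cultures.

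All 4 measured integrin partners passed, 2 in each direction. Besides FERMT1, the lower gene was CD151, a tetraspanin that binds laminin-binding integrins, at -1.40 (SE 0.49). Only 6 of 10 tumors lay below the cultures for CD151, both of which held a value shared exactly with other genes, and its call was lost without tumor 1, 3, 4, 5, 8 or 9 (adjusted p of 0.0523 to 0.0884). CAV1, the coat protein of caveolae, was higher by 1.67 (SE 0.35) with 9 of 10 tumors above the culture mean, and FHL2, an adaptor that binds integrin tails, by 1.64 (SE 0.32) with 10 of 10. Among 8 genes of the hemidesmosome and its ligand laminin-332, LAMA3 was lower (-1.58, SE 0.42) and DST (1.90, SE 0.31), ITGB4 and LAMB3 (0.92, SE 0.32) were higher. The list of 8 had a median difference of -0.06, against 0.03 over all 327 genes, of which 15.0% were lower and 17.7% higher. LAMA3 and LAMB3 encode the alpha and beta chains of the same laminin trimer, and their knockouts thus lay on opposite sides of culture. LAMB3 lost its call without tumor 2, 4, 6, 7 or 10 (adjusted p of 0.0544 to 0.0684), and DST had the same value as another gene in 1 culture.

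**Figure D2:**
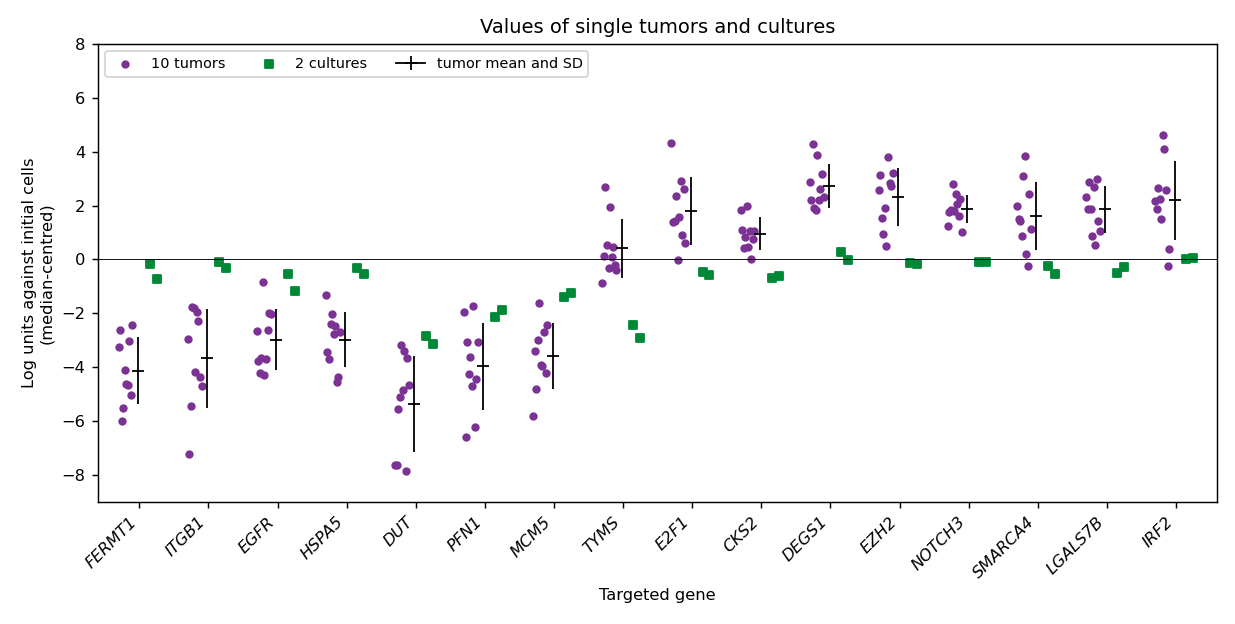
Values of single columns for 16 genes, in log units against initial cells with each column centred on its median. For each gene the 10 tumors (circles, with their mean and SD as a bar) stand left of the 2 cultures (squares). FERMT1, ITGB1 and HSPA5 show 10 tumors below 2 cultures that lie near 0, and TYMS shows 10 tumors above 2 cultures between -2.92 and -2.43.

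HSPA5 encodes BiP, the main Hsp70 chaperone of the endoplasmic reticulum. It had a lowest value of -4.56, a median of -2.75 and a highest of -1.31 in tumors, against -0.33 and -0.55 in the cultures. The difference was -2.54 (SE 0.35, adjusted p = 2.00e-05, 0.20 with the pooled spread). HSP90B1, the Hsp90 of the same compartment, differed by -1.48 (SE 0.40). Both measured chaperones of the list were thus lower in tumors, against 15.0% over all genes. After division of each column by its SD over genes HSP90B1 changed sign (0.30 SD units, adjusted p = 0.44) and HSPA5 alone was lower. HSP90B1 was lost in culture too, at -0.97 and -1.16, where HSPA5 missed the threshold at an adjusted p of 0.0504.

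The growth factor receptor EGFR drives proliferation in most squamous cells and was the 1 measured gene of its list. Tumors had a lowest value of -4.29, a median of -3.16 and a highest of -0.84, against -0.54 and -1.17 in the cultures. In 9 of 10 tumors it lay below the culture mean, and 1 tumor lay between the cultures. The difference was -2.12 (SE 0.40, adjusted p = 0.000444, 0.35 with the pooled spread). In the cultures EGFR just missed the threshold (adjusted p = 0.061), so its knockout was not shown to be without effect there.

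Against the initial cells, 72 genes (22.0%) were below 0 in tumors past the threshold and 61 (18.7%) above it, and 61 (18.7%) were below and 16 (4.89%) above 0 in culture. Of the 49 lower genes, 22 were not called in culture and were below 0 in tumors past the threshold, 26 were below 0 in both settings, and XBP1, a transcription factor of the unfolded protein response, passed in neither. The 22 included, beside the adhesion genes, EGFR and HSPA5, TYMP, JUN, ODC1, POLR3G, S100A16 and RRM2. TYMP, thymidine phosphorylase, which breaks thymidine down, had a lowest value of -4.74, a median of -1.80 and a highest of -0.34 in tumors, against -0.09 and -0.28 in the cultures. Its difference was -1.86 (SE 0.39, adjusted p = 0.00114) with no overlap. JUN, a subunit of the AP-1 transcription factor, differed by -1.81 (SE 0.40) with 9 of 10 tumors below the culture mean. ODC1, the first enzyme of polyamine synthesis, differed by -1.67 (SE 0.48), and its 10 tumors spread widely, between -6.02 and 0.19.

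For most of the 26 genes lost in both settings, the direction depended on the scale. DUT, which clears dUTP before it enters DNA, had a lowest value of -7.85, a median of -4.99 and a highest of -3.18 in tumors, against -2.86 and -3.14 in the cultures, where its mean was the lowest of all genes. All tumors lay below both cultures, and the difference was -2.36 (SE 0.47, adjusted p = 0.000685). When each column was divided by its SD over genes, so that all columns had the same width, the difference of DUT became 1.95 SD units above culture (adjusted p = 2.84e-05). That scaling asks whether a gene is low for its column, and not how many log units it was lost. Since cultures have the smaller SD, it enlarges their losses more than those of tumors, so that genes far below 0 in culture move up and genes near 0 in culture hardly can.

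Of the 26, 22 turned above 0 under this scaling, 8 of them past the threshold (ARPC2, CFL1, DUT, GNB2L1, MCM7, PFN1, TUBA1B and TUBB4B). Of the 49 lower genes, 13 stayed lower past the threshold, namely ASPM, C10ORF99, CD151, FERMT1, HSPA5, ITGB1, JUN, LAMA3, ODC1, POLR3G, S100A16, TYMP and XBP1. None of these 13 was called in culture, a contrast that the scaling itself favours. EGFR did not keep its call, with a scaled difference of -0.23 SD units (adjusted p = 0.69). After scaling, 28 genes (8.56%) were lower and 74 (22.6%) higher, and 34 of those 74 had been lost in culture.

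**Figure D3:**
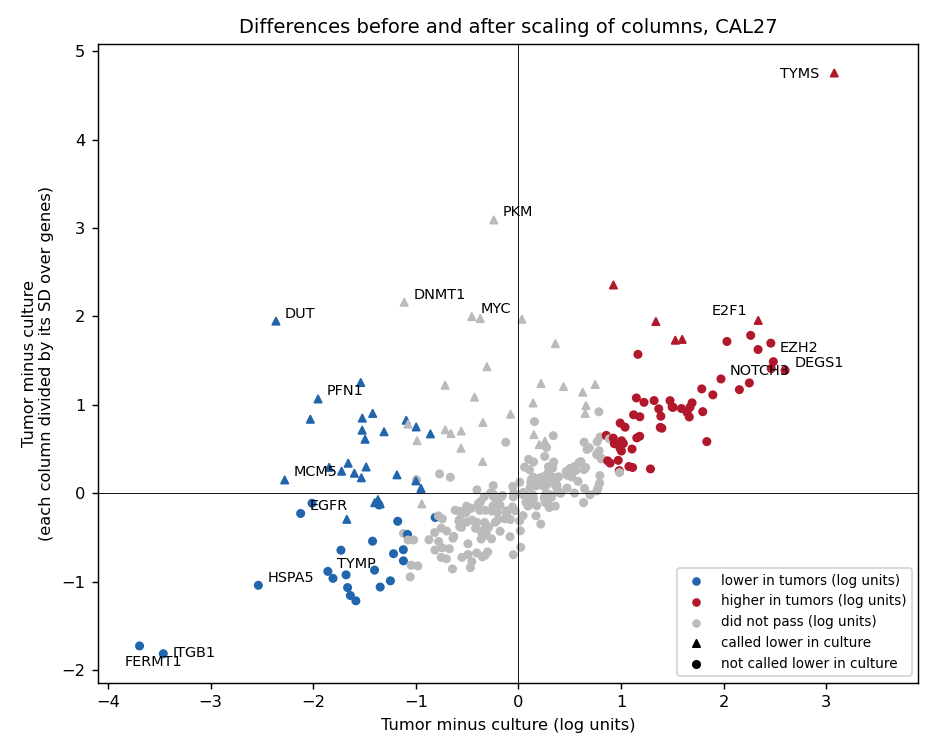
Tumor minus culture for 327 genes in log units (horizontal axis) and after each column was divided by its SD over genes (vertical axis). Triangles are the 61 genes called below 0 in culture, circles the others, and colours give the call in log units. Many blue triangles lie above the horizontal line, DUT at 1.95 among them, whereas FERMT1, ITGB1 and HSPA5 lie below it.

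All 9 measured members of the replication list were lost in culture, 4 of them (GINS2, MCM5, MCM7 and PCNA) were lower still in tumors, none was higher, and the list's median difference was -1.11. MCM5, a subunit of the helicase that opens DNA, had a lowest value of -5.82, a median of -3.66 and a highest of -1.62 in tumors, against -1.38 and -1.24 in the cultures (difference -2.28, SE 0.37, adjusted p = 9.94e-05). PCNA, the sliding clamp of DNA polymerases, differed by -1.72 (SE 0.38), and MCM7, of the same helicase as MCM5, by -1.42 (SE 0.38). The share of lower genes over all 327 was 15.0%. After scaling, 0 members were lower and 6 were higher, and the median was 1.23 SD units. GINS2, at -1.54 (SE 0.49), lost its call without tumor 2 (adjusted p = 0.0513). DNMT1, the maintenance DNA methyltransferase, at -1.11 (SE 0.44, adjusted p = 0.0553), did not pass in log units.

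Of 20 mitosis genes, 7 were lower (BIRC5, CDC20, CDK1, CKS1B, SMC4, TPX2 and UBE2S) and 2 were higher (CKS2 and MKI67), with a median of -0.70, against 15.0% lower and 17.7% higher over all genes. SMC4, a condensin subunit that compacts chromosomes, differed by -2.03 (SE 0.48), and BIRC5, survivin of the chromosomal passenger complex, by -1.37 (SE 0.41). After scaling none of the 20 was lower and 5 were higher, with a median of 0.14 SD units. Among 6 tubulins and stathmin, TUBB (-2.01, SE 0.45), TUBA1B (-0.86, SE 0.28) and TUBB4B (-0.996, SE 0.35) were lower and none was higher. After scaling 0 of the 6 were lower and 3 were higher, and TUBB had no call. The cultures of TUBB and SMC4 lay apart. With 1 culture left out, the difference was -2.57 or -1.45 for TUBB and -2.57 or -1.49 for SMC4. TUBA1B lost its call without tumor 10 (adjusted p = 0.0520), and TUBB4B without tumor 1, 2, 3, 7 or 8 (adjusted p of 0.0575 to 0.0964).

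Of 11 actin genes, PFN1, CFL1 and ARPC2 were lower and ACTB and TPM2 were higher, against 15.0% lower and 17.7% higher over all genes. After scaling 0 of the 11 were lower and 5 were higher, with a median of 0.58 SD units. PFN1, profilin, which feeds actin monomers to growing filaments, had a lowest value of -6.61, a median of -3.94 and a highest of -1.72 in tumors, against -2.15 and -1.89 in the cultures. Its difference was -1.95 (SE 0.44). CFL1, cofilin, which severs filaments, differed by -1.52 (SE 0.52) and lost its call without tumor 2, 3, 4 or 6 (adjusted p of 0.0677 to 0.0926), and the Arp2/3 subunit ARPC2 differed by -1.09 (SE 0.32). ACTB, beta-actin itself, was higher in tumors by 0.93 (SE 0.32), with tumors between -1.71 and 0.96 and cultures at -1.45 and -1.76. Of 4 translation genes, YBX1 (-1.85, SE 0.48), an RNA-binding protein, and GNB2L1 (-1.52, SE 0.39), the ribosomal scaffold now named RACK1, were lower. Both lost their calls without the 5 tumors with repeated steps described next (-0.64 and -0.67, adjusted p = 0.37 and 0.35), and both lay above culture after scaling (0.29 and 0.71 SD units).

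Some of the low values repeated the same steps between tumors. In 6 of the 45 pairs of tumors, at least 4 genes had one and the same difference, and 23 genes in 5 tumors (3, 4, 6, 7 and 8) had such values. All 23 were among the 49 lower genes, PCNA in 4 tumors, EGFR in 3, and DUT, FERMT1 and MCM5 in 2 each, whereas ITGB1 and HSPA5 had none. Over all genes 15.0% were lower, but the repeated values are themselves low tumor values, so this count is no separate result. Whether such values are bounds on the loss was not tested. Without these 5 tumors 18 genes were lower and 31 were higher. FERMT1 (-3.05, adjusted p = 0.00033), ITGB1 (-4.00, adjusted p = 0.00033), HSPA5 (-2.33), DUT (-2.37) and EGFR (-1.40, adjusted p = 0.046) were still called in the remaining 5. With fewer tumors in the fit, 30 of the 68 named genes lost their calls, where DNMT1, MYC and PKM had none to lose. FOSL1 (-0.02), IFITM3 (-0.39), TXNDC17 (0.41), PTMA (-0.44), TUBB4B (-0.46), KRT14 and LAMB3 (-0.56 and 0.56), HIST1H4C (0.57), YBX1 (-0.64), TK1 (0.66) and GNB2L1 (-0.67) were among those whose differences moved toward 0 by more than 1.5 times. So were CD151 (-0.91), LAMA3 (-0.98), S100A16 (-1.04) and IRF2 (1.10). The others that lost their calls were ANXA2, ARPC2, BIRC5, CAV1, CFL1, GINS2, GRHL1, HMGB1, JUNB, KRT6A, MCM7, MYBL2, RRM2, TUBA1B and UBE2S.

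Not all genes lost in culture were lost further. Of the 61 genes called below 0 in culture, 26 were lower in tumors, 29 did not pass and 6 were higher: TYMS, E2F1, CKS2, TXNDC17, MYBL2 and ACTB. The largest positive difference of the comparison was that of TYMS, thymidylate synthase, which makes dTMP from dUMP. The tumors had a lowest value of -0.88, a median of 0.11 and a highest of 2.68, whereas the cultures stood at -2.43 and -2.92, where only DUT and PKM were lower in the mean. Every tumor lay above both cultures, and the difference was 3.08 (SE 0.38, adjusted p = 5.01e-06, 0.17 with the pooled spread). It was 4.75 SD units after scaling.

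TYMS, DUT, TK1 and RRM2 form the nucleotide supply list, and all 4 passed, 2 in each direction, against 32.7% called either way over all genes. TK1, thymidine kinase, which salvages thymidine, was higher by 1.00 (SE 0.32) with tumors between -0.30 and 2.70 and cultures at 0.06 and 0.14. RRM2, the small subunit of ribonucleotide reductase, was lower, at -1.73 (SE 0.41) with tumors between -3.71 and 0.00 and cultures at -0.03 and -0.67. TK1 and RRM2 lost their calls after scaling (adjusted p = 0.076 and 0.29), as DUT changed its sign, so TYMS was the 1 member with the same call on both scales.

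E2F1, the transcription factor that opens S phase, had a lowest value of -0.01, a median of 1.49 and a highest of 4.31 in tumors, against -0.48 and -0.58 in the cultures. It was above 0 past the threshold in tumors and below 0 past it in culture. The difference was 2.34 (SE 0.38, adjusted p = 9.46e-05). CKS2, a small subunit of cyclin-dependent kinases, changed sides in the same way, with tumors between 0.02 and 1.99 and cultures at -0.69 and -0.61 (difference 1.60, SE 0.29). The sides are those of the median gene, which lay below the non-targeting guides in every tumor and culture. Against those guides 18 genes, in place of 61, were above 0 in tumors past the threshold. The change of sides is thus not a gain against uncut cells. MYBL2, a transcription factor of the late cell cycle, differed by 1.34 (SE 0.39). TXNDC17, a thioredoxin-like protein, differed by 1.53 (SE 0.49), with tumor 6 at 5.42 and the median tumor at 0.10. Without tumor 6 its difference was 1.01 (adjusted p = 0.040), and without the 5 tumors with repeated steps it was 0.41 (adjusted p = 0.50). Of 5 genes of G1 and E2F control, E2F1 and the kinase inhibitor CDKN2B (1.38, SE 0.35) were higher and none was lower. Over all genes 17.7% were higher and 15.0% lower.

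PKM, MYC and DNMT1, the other lowest genes of the cultures, stayed below 0 in tumors and did not pass between the settings. PKM, the last enzyme of glycolysis, had a median of -2.61 in tumors, against -3.26 and -2.44 in the cultures, with a difference of -0.24 (95% interval of -1.34 to 0.87). MYC, a driver of growth, had a median of -2.70 in tumors, against -2.23 and -1.82 in the cultures, and a difference of -0.45 (95% interval of -1.20 to 0.29). DNMT1 passed on the deposited scale (-1.44, adjusted p = 0.024). After division by the column SD all 3 passed in the other direction, PKM at 3.09 (adjusted p = 0.015), DNMT1 at 2.16 (adjusted p = 1.06e-05) and MYC at 2.00 SD units (adjusted p = 0.0043). The intervals above leave room for differences of more than 1 log unit.

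Most genes higher in tumors were near 0 in culture. Of the 58, 46 were not called in culture and lay above 0 past the threshold in tumors, so that their knockouts were gained relative to the median gene. In some column of the 4 tables, 15 of the 58 held the very same value as another gene. Among them were ADM, CKS2, DMKN, DST, IRF3, IRX3, KRT6A, PLP2 and TPM2. Only 21 genes in all held such a value, and 1 of the 49 lower genes did, so these values were concentrated on the higher side. The count takes in A431 columns, which have no part in the CAL27 difference. In the CAL27 cultures 11 genes held such a value, 6 of them in both cultures. CD151, IRX3 and TPM2 were among these 6, so every culture value behind their differences is a shared one. With all 21 genes left out, 42 genes were higher. The counts also moved with the zero point: against the non-targeting guides, as deposited, 71 genes (21.7%) were lower and 31 (9.48%) were higher, since the median gene itself lay further below those guides in tumors. All 31 were among the 58.

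DEGS1, the desaturase that makes ceramide, had the highest mean of all genes in tumors, 2.73. Its values had a lowest of 1.84, a median of 2.46 and a highest of 4.30 in tumors, against 0.27 and -0.02 in the cultures, with a difference of 2.60 (SE 0.33, adjusted p = 5.26e-06, 0.17 with the pooled spread). EZH2, the histone methyltransferase of Polycomb repressive complex 2, had a lowest of 0.48, a median of 2.64 and a highest of 3.82, against -0.13 and -0.16 in the cultures (difference 2.46, SE 0.35, adjusted p = 2.28e-05). SMARCA4, the ATPase of the SWI/SNF remodeller, had tumors between -0.25 and 3.86 and cultures at -0.26 and -0.56 (difference 2.03, SE 0.39). The tumors of all 3 genes lay above both cultures. In the list of 10 chromatin genes, HIST1H4C and HMGB1 were higher as well and none was lower, against 17.7% higher and 15.0% lower over all genes. Both HIST1H4C and HMGB1 lost their calls after scaling (adjusted p = 0.14 and 0.069).

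The transcription factors of squamous fate had the highest median of the 22 lists, 1.04, with 6 of 9 higher (CEBPA, CEBPD, GRHL1, IRX3, NOTCH3 and SOX4) and TP63 lower, against 17.7% higher and 15.0% lower over all genes. NOTCH3, a receptor whose family starts keratinocyte differentiation, spread little in tumors, with a lowest value of 1.01, a median of 1.81 and a highest of 2.78, against -0.08 and -0.11 in the cultures. Its difference was 1.97 (SE 0.29, adjusted p = 2.51e-05). CEBPD, a factor of differentiating keratinocytes, was higher by 1.18 (SE 0.34) and its relative CEBPA by 1.04 (SE 0.35). TP63, which keeps squamous cells in their basal state, was lost in both settings, with tumors between -5.27 and -0.09 (median -2.71) and each culture at -1.02. It differed by -1.53 (SE 0.41) in log units and by 0.17 SD units after scaling. On the deposited scale 2 of the 9 genes were higher.

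Of 15 genes of keratinocyte differentiation and cornification, 7 were higher (CALML3, DMKN, GRHL1, KRTDAP, LGALS7, LGALS7B and SBSN), none was lower, and the median was 0.76, against 17.7% higher over all genes. KRTDAP, a secreted protein of differentiating layers, had tumors between 0.18 and 4.49 (median 1.93), against 0.08 and 0.11 in the cultures, a difference of 1.80 (SE 0.38). SBSN, suprabasin, of the layers above the basal one, differed by 1.39 (SE 0.29). DMKN, dermokine, differed by 2.34 (SE 0.36) with 1 tumor below the culture mean.

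LGALS7 and LGALS7B are near-identical copies of galectin-7, a lectin of stratified epithelia. Their coding sequences of 411 bases are the same at 410 positions in GENCODE, and 85 of the 89 sites of 20 bases before NGG in LGALS7 are also in LGALS7B, so guides against one can cut both. The guide sequences were not used here. In tumors their medians were alike, 1.90 for LGALS7 and 1.88 for LGALS7B. In the cultures they were not: LGALS7 stood at 0.40 and 0.41, and LGALS7B at -0.52 and -0.30. The differences were 1.29 (SE 0.30) for LGALS7 and 2.26 (SE 0.33) for LGALS7B. Of 9 keratins, KRT6A was higher (1.15, SE 0.31), KRT14, the keratin of basal cells, lower (-0.999, SE 0.35), and 7 did not pass. The shares over all genes were 17.7% higher and 15.0% lower, so these counts are not above them. KRT14 lost its call without tumor 1, 2, 3, 4 or 7 (adjusted p of 0.0601 to 0.0785).

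None of 13 junction genes passed in either direction by the own-spread fit, and their median difference was -0.13. The pooled fit called 0 genes of any list, so its 0 here carries no information. For this list and those that follow, the shares to compare come from the full gene set: 15.0% for lower calls, 17.7% for higher calls. After scaling, 4 of the 13 junction genes passed as lower and 0 as higher, where 8.56% of the full set passed as lower. Of 8 AP-1 and immediate early genes, JUN, JUNB (-1.18, SE 0.41) and FOSL1 (-1.49, SE 0.44) were lower and none was higher. JUNB lost its call without tumor 2, 3, 6, 7 or 10 (adjusted p of 0.0533 to 0.0783). After scaling JUNB and FOSL1 stood at 0.21 and 0.61 SD units, above culture, and without the 5 tumors with repeated steps FOSL1 stood at -0.02 (adjusted p = 0.97). With its repeated values missing FOSL1 stood at -1.02 (adjusted p = 0.10). Of 10 S100 proteins and annexins, S100A16 (-1.68, SE 0.42) and ANXA2 (-0.81, SE 0.28) were lower. ANXA2 had tumors between -1.76 and -0.23, against -0.14 and -0.22 in the cultures, and lost its call without tumor 1, 4, 6 or 8 (adjusted p of 0.0562 to 0.0624).

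Of 18 invasive-front and mesenchymal markers, INHBA (1.48, SE 0.35), a subunit of activin, LAMB3 and TPM2 were higher and 15 did not pass. Over all 327 genes 17.7% were higher and 15.0% lower, and the 3 of 18 lay near the former share. Of 5 hypoxia and glycolysis genes, ADM, the precursor of the vessel-dilating peptide adrenomedullin, was higher by 2.46 (SE 0.35) and 4 did not pass. Of 5 interferon, MHC and NF-kB genes, the interferon regulatory factors IRF2 (2.15, SE 0.41) and IRF3 (1.79, SE 0.37) were higher, and IFITM3, a membrane protein that blocks virus entry, was lower (-1.36, SE 0.41). Without the 5 tumors with repeated steps IRF2 stood at 1.10 (adjusted p = 0.089) and IFITM3 at -0.39 (adjusted p = 0.60), and after scaling IFITM3 stood at -0.13 SD units (adjusted p = 0.83).

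**Figure D4:**
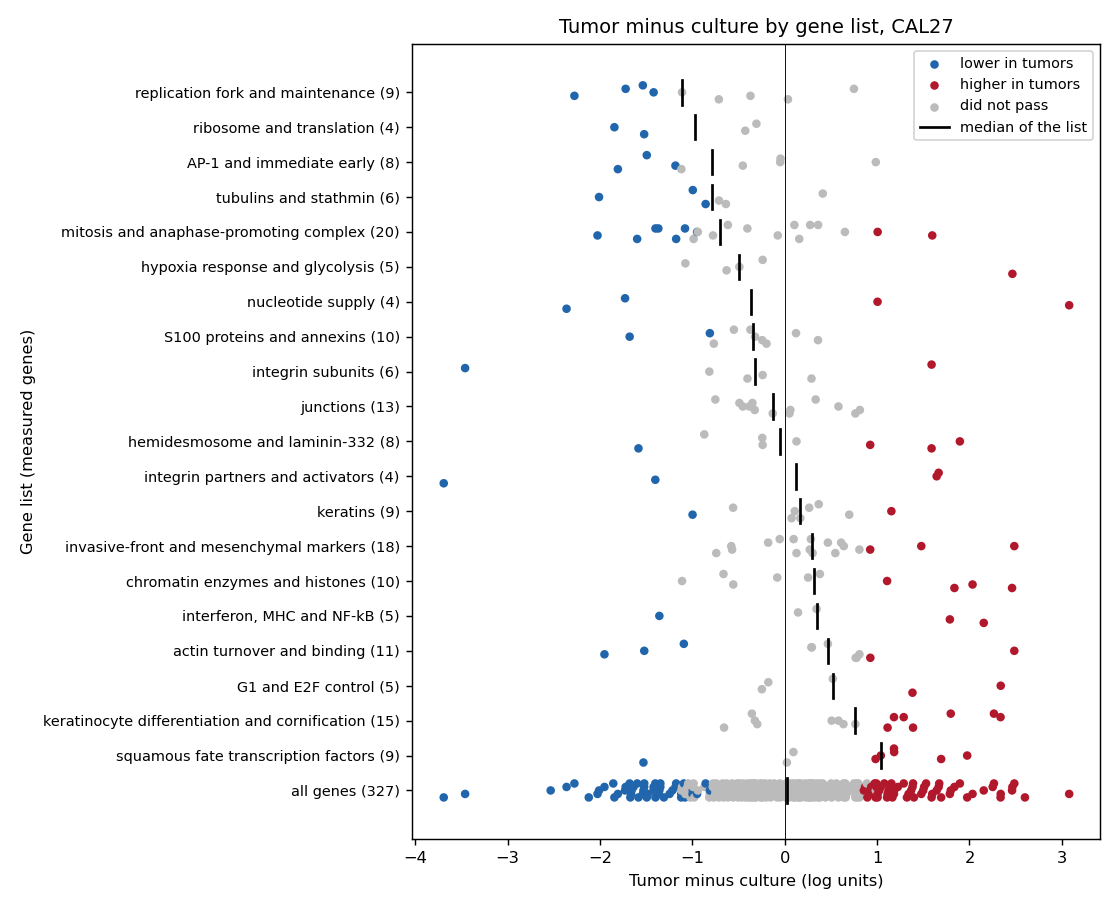
Tumor minus culture in log units for each measured gene of 20 lists with at least 4 measured genes, and for all 327 genes in the bottom row. Colours give the call of each gene, and the black bar is the median of the list. The squamous fate list has a median of 1.04 and the replication list one of -1.11, against 0.03 over all genes.

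In A431, the same comparison of 8 tumors with 2 cultures gave 18 lower genes (5.50%) and 22 higher ones (6.73%). Lower in both lines were BIRC5, FERMT1, ITGB1, PCNA, S100A16 and TUBB, 6 genes that make 12.2% of the CAL27 list and 33.3% of the A431 list. Higher in both were ACTB, CALML3, EZH2, IRX3, ITGB4, NOTCH3, SMARCA4, TPM2, TXNDC17 and USF2, 10 genes that make 17.2% of the CAL27 list and 45.5% of the A431 list. The lines share no initial samples. Over the 327 genes the differences of the lines had a Pearson correlation of 0.41 and a Spearman correlation of 0.34, given as a description.

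Tested directly, the difference was more negative in CAL27 than in A431 for 33 genes (10.1%) and more positive for 23 (7.03%), and 27 of the 33 and 21 of the 23 were called in the same direction in CAL27 itself. FERMT1 differed by -3.69 in CAL27 and -1.78 in A431, and ITGB1 by -3.46 and -1.68. Between the lines FERMT1 thus lay 1.91 lower (difference -1.91, SE 0.48, adjusted p = 0.0058) and ITGB1 1.78 lower (difference -1.78, SE 0.57, adjusted p = 0.024). Both lost that call when columns were divided by their SD (adjusted p = 0.97 and 0.67). HSPA5, at -2.54 in CAL27, stood at -0.19 (SE 0.29) in A431, with a difference between lines of -2.35 (SE 0.45, adjusted p = 0.00048, 0.11 after scaling). EGFR, at -2.12 in CAL27, stood at -0.51 (SE 0.36) in A431, and it differed between the lines by -1.62 (SE 0.53, adjusted p = 0.028, 0.39 after scaling).

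On the higher side, TYMS, at 3.08 in CAL27, stood at 0.73 (SE 0.27) in A431. Between the lines it lay 2.35 higher in CAL27 (SE 0.46, adjusted p = 0.00048), and 0.0023 was the adjusted p after scaling. LGALS7B (2.28), PLP2 (2.31), DEGS1 (2.19) and IRF2 (2.16) had the next largest differences between lines, and IRF2 alone of these 4 lost its call after scaling (adjusted p = 0.053). SLC2A1, the glucose transporter GLUT1, had opposite values, -1.08 (SE 0.46, did not pass) in CAL27 and 1.67 (SE 0.26) in A431, and differed between the lines by -2.75 (SE 0.52, 0.0066 after scaling). JUNB likewise was lower in CAL27 at -1.18 and higher in A431 at 1.20, and TUBB4B lower at -0.996 and higher at 1.39. After scaling, 9 of the 33 and 11 of the 23 genes were still called, and 0 had changed sign. EZH2, NOTCH3 and SMARCA4, at 1.63, 1.58 and 2.17 in A431, had differences between lines of 0.83, 0.40 and -0.13 (SE 0.45, 0.38 and 0.47) that did not pass.

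**Figure D5:**
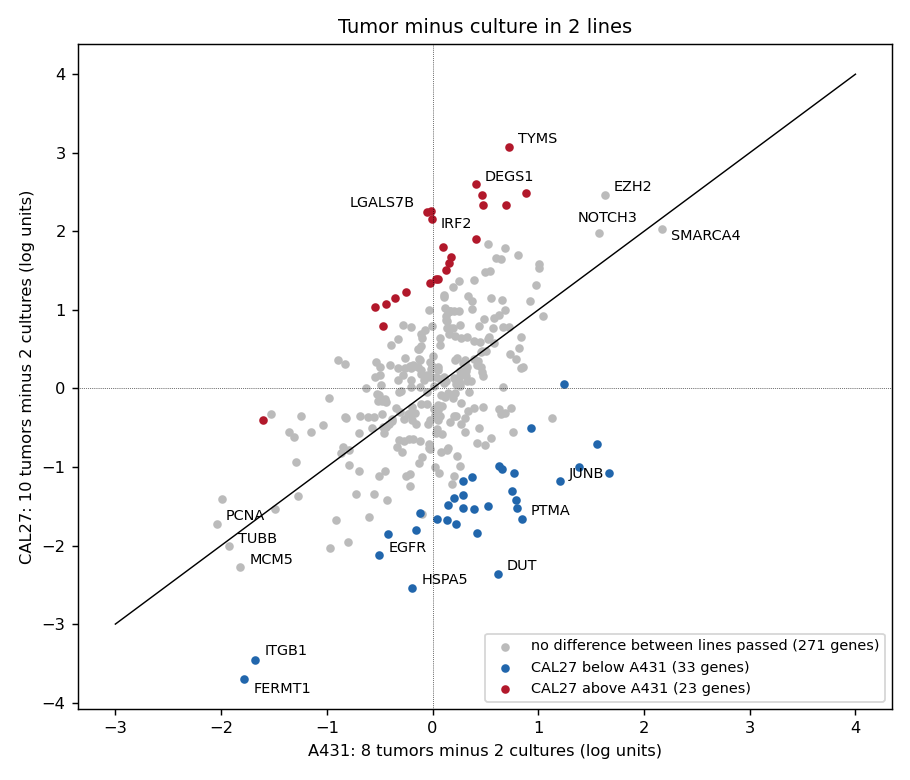
Tumor minus culture in log units for CAL27 (vertical axis, 10 tumors and 2 cultures) against A431 (horizontal axis, 8 tumors and 2 cultures), 1 point per gene. Colours mark the 33 genes more negative and the 23 more positive in CAL27, and the line marks equal differences. FERMT1 and ITGB1 lie below 0 in both lines, and TYMS lies at 3.08 in CAL27 and 0.73 in A431.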

How the data were processed

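Guide abundance was measured in 10 CAL27 tumors and 2 CAL27 cultures, with A431 (8 tumors, 2 cultures) as the closest comparison. For each line and setting the authors deposited a table of log fold changes per gene, a score in log units whose base no source used here gives. The tables name no columns, no guide and no genome build. Bowtie2 was used, per the submitters' processing notes. The non-targeting row was 0 in every column of the 4 tables used. Columns carry no replicate numbers, and the labels do not tie tumors to mice or cultures to separate starts, so p-values measure only the spread between columns.

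Columns were matched by gene (327, the non-targeting row left out) and centred on their median. Per gene, the variance of each setting was moderated within its own table with limma 3.58.1 in R 4.3.3 (lmFit, eBayes), divided by n and summed, with Satterthwaite degrees of freedom and Benjamini-Hochberg adjustment over all genes at 0.05. Single settings were tested against 0 with limma, and the lines by the difference of their differences. Alternatives were a pooled spread, array weights, no moderation, an exact permutation test, the deposited values, columns divided by their SD, the tumor median, repeated values set to missing, and each column left out. Chosen after seeing the data were leaving out the 5 tumors with repeated steps and the genes that share a value. The scripts were tested on simulated data. The comparison, the 22 gene lists and the tests were chosen with earlier results of these data known. Named genes were the 10 largest differences each way with at least 8 of 10 tumors on that side, 4 members per list, the 5 lowest in culture, the 5 largest each way among genes lost in culture and between the lines, and ITGB1, FERMT1 and EGFR. The 68 named genes that are counted are those of this set with a call, and DNMT1, MYC and PKM. Members such as SLC2A1 that had no call are not among the 68. Other names, such as the members of a count, were added after their values were seen. Of the 327 symbols 311 are current in RefSeq and 16 are older names. The SCC13 tumors were not used here.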

Additional observations from a re-analysis of the deposited data

Results flagged for a closer look

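In 70 sets of 10 tumor values tested for a single far value, 4 had one, where chance flags about 1 in 20. CAV1 stood at -0.69 in tumor 5 with the other tumors above the culture mean. LAMA3 stood at -4.93 and TXNDC17 at 5.42 in tumor 6, the tumor whose column median was also the farthest from the rest, at -1.50. The part of that column in the results of LAMA3 and TXNDC17 was not tested beyond leaving it out, which kept both calls at differences of -1.18 for LAMA3 and 1.01 for TXNDC17.

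The difference between tumors and culture was not the same in CAL27 and A431 for 34 of the 68 named genes by the direct test. Over all 327 genes, 33 (10.1%) were more negative and 23 (7.03%) more positive in CAL27. Named genes were picked in part for large differences, also between the lines, so their count is no result about them. After scaling, 9 of the 33 and 11 of the 23 kept their calls, and FERMT1 and ITGB1 did not. More negative in CAL27, in log units, were genes of adhesion and signalling, FERMT1 (-1.91), ITGB1 (-1.78), LAMA3 (-1.47) and EGFR (-1.62), and the chaperones HSPA5 (-2.35) and HSP90B1 (-1.63). So were DUT (-2.98), RRM2 (-1.96), TYMP (-1.44), GINS2 (-1.93) and MCM7 (-2.21) of DNA synthesis and its precursors. The AP-1 subunits FOSL1 (-2.02), JUN (-1.65) and JUNB (-2.39) and the cytoskeletal genes CFL1 (-2.32) and TUBB4B (-2.39) went the same way, as did GNB2L1 (-1.81), YBX1 (-2.26), IFITM3 (-1.65) and the nuclear protein gene PTMA (-2.50). More positive in CAL27 were TYMS (2.35), E2F1 (1.86), CKS2 (1.44) and MYBL2 (1.36) of the cell cycle, and KRTDAP (1.69), DMKN (1.64), LGALS7B (2.28) and SBSN (1.34) of keratinocyte differentiation. DEGS1 (2.19), IRF2 (2.16), ADM (2.00), PLP2 (2.31), DST (1.49) and TPM2 (1.60) were the others.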

How the results depend on the processing

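No paired analysis was possible because the value columns carry no replicate numbers. The count of 49 lower and 58 higher genes depended most on how the spread was estimated: a pooled spread and the exact permutation test gave 0 and 0, and fits without moderation gave 21 lower genes. Leaving out a single tumor gave 40 to 50 lower and 46 to 54 higher genes, and 63 to 71 and 53 to 62 against initial cells. Leaving out either culture, with a pooled spread and the lone culture assumed to vary like the tumors, gave 0 and 0. Division by the column SD gave 28 lower genes, and 5 below and 33 above without overlap. The deposited zero point gave 31 higher genes, 18 below and 10 above without overlap, 164 lower and 18 higher in tumors, and 293 lower and 0 higher in culture. Without the 5 tumors with repeated steps the counts were 18 and 31. Between the lines, a pooled spread gave 0 and 0, the deposited values 53 and 8, and division by the SD 12 lower. The cause of these changes was not tested.

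Division by the column SD changed the sign of ARPC2 (0.82), CFL1 (0.85), DNMT1 (2.16), DUT (1.95), FOSL1 (0.61), GINS2 (1.25), GNB2L1 (0.71), HSP90B1 (0.30), JUNB (0.21), KRT14 (0.14), MCM5 (0.15), MCM7 (0.90), MYC (2.00), PCNA (0.25), PFN1 (1.07), PKM (3.09), PTMA (0.34), SMC4 (0.84), TP63 (0.17), TUBA1B (0.67), TUBB4B (0.75), UBE2S (0.23) and YBX1 (0.29). The difference of PKM, which did not pass, became 0.05 without tumor 3, 0.17 without culture 2 (-0.65 without culture 1) and 0.69 without the 5 tumors. Over all alternatives with both cultures, the adjusted p ranged from 1.75e-07 to 0.413 for FERMT1, from 1.49e-05 to 0.513 for ITGB1, from 6.17e-06 to 0.413 for HSPA5, from 1.77e-06 to 0.413 for TYMS and from 0.000111 to 0.694 for EGFR. Of the 68 named genes, DNMT1, MYC and PKM had no call to lose. All other named genes kept their call with array weights, and 19 lost it without moderation, 7 on the deposited scale and 7 with repeated values missing. CD151, IRX3 and TPM2 could not be fitted with repeated values missing, since no culture value was left, so that check says nothing about them. Depth is unknown, so the part of counting error in the tumor spread was not tested.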
